A study of Mus musculus with 18 samples.

Results

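The 10 genes described here encode proteins that bind monomeric actin or carry it across the nuclear envelope, and were followed through mouse marrow-derived mesenchymal stem cells (MSC) in which actin had been disturbed in several ways. The 10 genes were chosen by name from the 54347 genes of the table, for what their products do, with earlier results of these data known. All 10 were found: Ipo9 and Xpo6 (nuclear transport of actin), Cfl1, Cfl2, Dstn and Cap1 (filament severing and monomer recycling), Pfn1 and Pfn2 (profilins), and Tmsb4x and Tmsb10 (beta-thymosins). RNA was sequenced in 18 libraries, 3 for each of 6 groups. They are taken here as 2 experiments of 9 libraries, untransfected and transfected, though the sample titles name no experiment or batch. In the first, untransfected cells were left untreated (control), given CK666, which inhibits branch nucleation by the Arp2/3 complex, or given cytochalasin D (CytoD), which blocks the growing ends of actin filaments. In the second, cells received a control siRNA (siControl, also labelled mock), an siRNA against Arp4 (siArp4), a nuclear actin-related protein encoded by Actl6a, or the Arp4 siRNA followed by CK666 (siArp4+CK666). All cells came from the marrow of male C57BL/6J mice, the libraries from separate culture preparations, and a group given the control siRNA and CK666 was not analysed here.

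Actin passes between monomer (G-actin) and filament (F-actin). Cofilins and the related Dstn (actin depolymerizing factor) sever filaments and release ADP-bound monomers, Cap1 takes those monomers off cofilin and speeds nucleotide exchange, profilins hand ATP-bound monomers to growing ends, and beta-thymosins hold a reserve of monomers back from polymerization. Importin 9 (Ipo9) carries actin with cofilin into the nucleus and exportin 6 (Xpo6) carries actin with profilin out, so the same small proteins bear on both the cytoplasmic and the nuclear pool.

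Library totals lay between 18075610 and 24733212 counts. The target of the siRNA was low in both knockdown groups. Actl6a had 720.1, 1127 and 840.6 normalized counts after control siRNA, 48.85, 57.23 and 19.04 after Arp4 siRNA, and 9.516, 22.89 and 17.92 where CK666 followed. The fall against siControl was 21.5-fold in siArp4 (DESeq2 log2 change -4.42 ± 0.41 SE, adjusted p 2.57e-25) and 53.1-fold in siArp4+CK666 (-5.73 ± 0.44, adjusted p 6.27e-37), and counts of it were left in every library. Of 10 MSC markers 6 had a mean of at least 100 counts, among them Pdgfra, Pdgfrb, Itgb1 and Cd44. Thy1 was at 0 in all 18 libraries, and Nt5e, Eng and Alcam had mean counts of 1.716, 33.35 and 32.69. No blood cell marker of 10 and no endothelial marker of 6 reached a mean of 100 counts, Cd3e, Cdh5 and Tie1 were at 0 throughout, and Ptprc was at 0 in 17 libraries. The macrophage genes Csf1r, Cd68 and Lyz2 had counts in every library, with means of 56.65, 56.8 and 43.05. Against control, CytoD gave DESeq2 log2 changes of 1.42 ± 0.27 for Cd68 (adjusted p 1.59e-06) and 1.08 ± 0.35 for Lyz2 (adjusted p 0.00758). Csf1r was at 0.44 ± 0.36 (adjusted p 0.355). The summed blood marker level, as counts scaled to an equal library total (CPM), was 5.274 to 8.24 CPM in control, 6.679 to 9.409 in CK666 and 13.76 to 13.85 in CytoD, and 3.105 to 13.59 across the transfected groups. The summed endothelial level was 0.8799 to 2.909 CPM in control, 3.458 to 12.47 in CK666 and 3.569 to 4.399 in CytoD. It was 0.814 to 1.147 in siControl, 0.6924 to 5.767 in siArp4 and 2.436 to 4.392 in siArp4+CK666. Against control, Vwf had a DESeq2 log2 change of 1.99 ± 0.52 with CK666 (adjusted p 6.55e-04) and 1.04 ± 0.53 with CytoD (adjusted p 0.108). Kdr was at 0.05 ± 0.85 with CK666 (adjusted p 0.972), and at 2.67 ± 0.68 in siArp4+CK666 against siControl (adjusted p 3.92e-04). The MSC marker sum was 1856 to 1930 CPM in control, 1279 to 1554 in CK666, 1621 to 1664 in CytoD, 726.5 to 1759 in siControl, 1189 to 1342 in siArp4 and 697.7 to 1018 in siArp4+CK666. What these shifts contribute to the values below was not tested. In bulk RNA fewer cells of a type and less RNA per cell cannot be told apart.

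Several of the 10 are paralogues, and their coding sequences are close enough to ask whether reads could be shared. Over their principal coding sequences Cfl1 and Cfl2 were identical at 71.9% of aligned positions, Cfl1 and Dstn at 69.4%, Pfn1 and Pfn2 at 62.2%, and Tmsb4x and Tmsb10 at 70.9%, but the longest run of bases shared by any transcripts of a pair was only 20 (Cfl1 and Dstn). Pseudogene copies are a separate matter: 7 were found for Tmsb10 and 5 for Cfl1, and for no gene did the copies hold more than 0.0997% of its counts. The 132 coding bases of the 2 thymosins are shown because these are the shortest members and the only ones in the class of short transcripts described further on. They are written 5′ to 3′ from the start codon, without the stop codon, from the GENCODE vM21 annotation of GRCm38, with capitals at the 40 positions where the pair differ when set side by side without gaps. Tmsb4x lies at chrX:167207093-167209315 and Tmsb10 at chr6:72957347-72958748, both on the minus strand.
Tmsb4x: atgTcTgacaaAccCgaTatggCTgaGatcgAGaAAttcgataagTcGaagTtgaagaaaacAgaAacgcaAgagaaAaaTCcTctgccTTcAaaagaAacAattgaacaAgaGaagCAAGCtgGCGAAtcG
Tmsb10: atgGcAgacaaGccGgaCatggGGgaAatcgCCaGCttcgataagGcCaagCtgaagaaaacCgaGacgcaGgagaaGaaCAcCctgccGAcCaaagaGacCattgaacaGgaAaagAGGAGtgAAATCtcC

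The cofilin and profilin pairs moved apart, and the 250 bases upstream of each start are shown for those 4 genes. The windows come from the RefSeq promoter table (GRCm38.p6) and are read 5′ to 3′ on the gene's strand, and where a gene has several the first is shown. Capitals mark GGGCGG on either strand, the GC box bound by Sp1-type factors, with overlapping matches merged. Cfl1 lies at chr19:5490205-5490454 (plus strand), Cfl2 at chr12:54862878-54863127 (minus), Pfn1 at chr11:70654651-70654900 (minus) and Pfn2 at chr3:57847758-57848007 (minus). The Pfn2 window, before a RefSeq start, lies within the GENCODE vM21 span of that gene, chr3:57841895-57848079.
Cfl1: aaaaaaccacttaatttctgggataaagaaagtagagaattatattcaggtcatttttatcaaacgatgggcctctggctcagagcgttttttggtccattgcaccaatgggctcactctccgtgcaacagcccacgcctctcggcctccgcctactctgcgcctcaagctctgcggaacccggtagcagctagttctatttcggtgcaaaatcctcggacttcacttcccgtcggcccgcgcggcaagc
Cfl2: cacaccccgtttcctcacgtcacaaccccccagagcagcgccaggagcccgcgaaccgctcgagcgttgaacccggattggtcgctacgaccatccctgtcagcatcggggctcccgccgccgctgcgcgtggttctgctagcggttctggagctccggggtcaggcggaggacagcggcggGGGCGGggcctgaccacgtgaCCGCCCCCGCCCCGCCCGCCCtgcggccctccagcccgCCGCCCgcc
Pfn1: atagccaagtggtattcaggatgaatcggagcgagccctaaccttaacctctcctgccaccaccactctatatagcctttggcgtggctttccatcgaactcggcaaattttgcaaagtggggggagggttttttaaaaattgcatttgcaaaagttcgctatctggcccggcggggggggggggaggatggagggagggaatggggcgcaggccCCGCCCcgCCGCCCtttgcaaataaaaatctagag
Pfn2: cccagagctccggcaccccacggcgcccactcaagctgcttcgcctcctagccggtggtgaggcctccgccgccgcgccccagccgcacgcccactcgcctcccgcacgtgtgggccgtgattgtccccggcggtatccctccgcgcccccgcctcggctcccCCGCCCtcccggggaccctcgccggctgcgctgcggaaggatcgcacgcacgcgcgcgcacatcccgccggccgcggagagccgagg
The GC box occurred 6 times in the Cfl2 window, 2 times in Pfn1, 1 time in Pfn2 and not at all in Cfl1. The 10 genes have 13 windows in all, and 11 of these held it. They belong to 8 of the 10 genes, Cfl1 and Cap1 being the others, and it was in 32.7% of all 32851 RefSeq windows of that length. No window of the 10 genes held a CArG box, the element read by serum response factor with the actin-sensing coactivator Mrtfa, which was present in 1.47% of all windows. CATTCC, the core bound by TEAD factors, was found in 2 of the 13 windows, those of Pfn1 and Xpo6, and in 12.6% of all windows. TATAAA was found upstream of none of the 10 and in 12.4% of all. A match is only a run of letters, and a missing match says only that the letters are not in this window.

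A gene is called changed below where its DESeq2 adjusted p was under 0.01, and past the fold minimum where the change was also over 2-fold. CK666 lowered most of the 10. Against control, 6 were lower and 1, Pfn2, was higher, where 14.4% of all genes tested were called lower and 15.0% higher. None was past the fold minimum, which 10.8% of all genes passed. For 23.2% of all genes every CK666 library lay under every control library. The median log2 change of the 10 was -0.54 against 0.01 for all genes tested. Abundant genes are called more often, and 39.4% of genes with a mean of at least 1000 counts were called in either direction. Dstn, Pfn2 and Cap1 were called in all 8 other settings tried. Ipo9, Cfl1, Pfn1 and Tmsb4x were each called in 7 and lost in 1 fit of all 18 libraries. Their adjusted p reached 0.0165, 0.0295, 0.0682 and 0.0363.

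All 10 had lower values with CytoD, most by amounts that missed the threshold. Every CytoD library lay below every control library for each of the 10 genes, as it did for 29.7% of all genes tested. Only 4 were called, Xpo6, Cfl2, Dstn and Pfn2, all lower, against a background of 15.7% called lower and 13.5% higher, and none passed the fold minimum, as 9.02% of all genes did. The largest of the 10 changes was a log2 change of -0.59 ± 0.15 for Xpo6 (adjusted p 2.91e-04), and the median of the 10 was -0.40 against 0.01 for all genes. The CK666 and CytoD comparisons share the control libraries. The count of calls depended on which libraries set the spread. It was 10 when only the 6 control and CytoD libraries were fitted, 9 without the first CK666 library, 7 without the second, 2 without the second CytoD library and 2 in edgeR. The Cfl2 call was lost without the first control or the second CytoD library, and the Pfn2 call without the second or the third library of either group, with adjusted p up to 0.0127 and 0.0186. Between the inhibitors themselves, CK666 against CytoD, Xpo6, Cfl2 and Pfn2 were higher with CK666 and Cap1 was lower, beside backgrounds of 17.1% higher and 15.0% lower. None passed the fold minimum, which 11.9% of all genes passed, though Pfn2 at 1.99-fold stood at its edge and edgeR put it over. The 4 calls became 8 without the first CK666 library, and that of Cfl2 was lost without the first or the second CytoD library (adjusted p up to 0.019). The median of the 10 was -0.16 against -0.02 for all genes.

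Loss of Arp4 divided the 10, with a median log2 change of -0.14 against -0.05 for all genes. Against siControl, Cfl1, Dstn and Pfn2 rose and Cfl2, Pfn1 and Cap1 fell, where 12.1% of all genes were called higher and 13.3% lower. Cfl1, Cfl2, Pfn1 and Pfn2 were past the fold minimum, which 16.3% of all genes passed. With CK666 added, Cfl1 and Pfn2 were still higher than siControl, and Cfl2, Pfn1, Tmsb10 and Cap1 lower, beside 14.2% of all genes higher and 16.0% lower. Cfl1, Pfn1, Pfn2 and Tmsb10 were past the fold minimum in that comparison, as were 20.6% of all genes, and the median of the 10 was -0.45 against -0.05. The 2 comparisons share the siControl libraries. CK666 in the knockdown cells, siArp4+CK666 against siArp4, lowered Dstn, Pfn2 and Tmsb4x and raised none, against backgrounds of 5.94% lower and 3.75% higher. Tmsb4x alone was past the fold minimum, which 5.65% of all genes passed, and the median of the 10 was -0.36. The Dstn call was lost without the first or the second siArp4 library (adjusted p up to 0.0119). edgeR called none of the 10 in this last comparison at adjusted p under 0.01, with adjusted p values of 0.0682, 0.0175 and 0.0343 for Dstn, Pfn2 and Tmsb4x. At an unadjusted p under 0.05 both tools counted 4 of the 10, Tmsb10 being the other one.

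**Figure D1:**
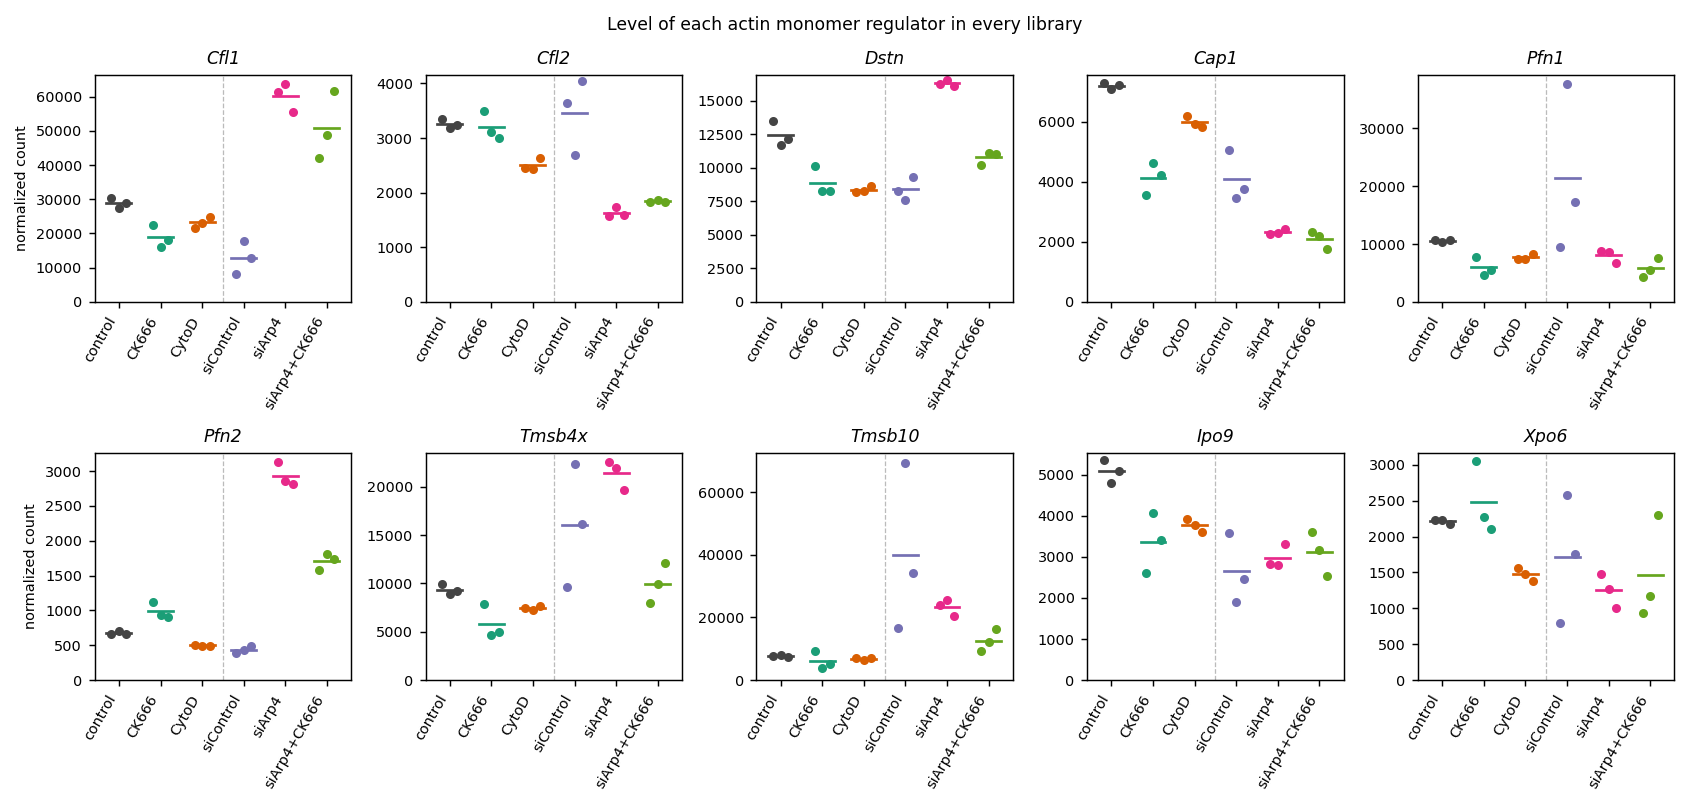
Normalized count (vertical axes, from 0) of each of the 10 genes in every library, with the group mean as a bar. Counts were scaled within each experiment, on either side of the dashed line. Within their experiment, Pfn2 and Cfl1 sit highest in the 2 groups given the Arp4 siRNA, and the siControl libraries are widely spread for Pfn1, Tmsb4x and Tmsb10.

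**Figure D2:**
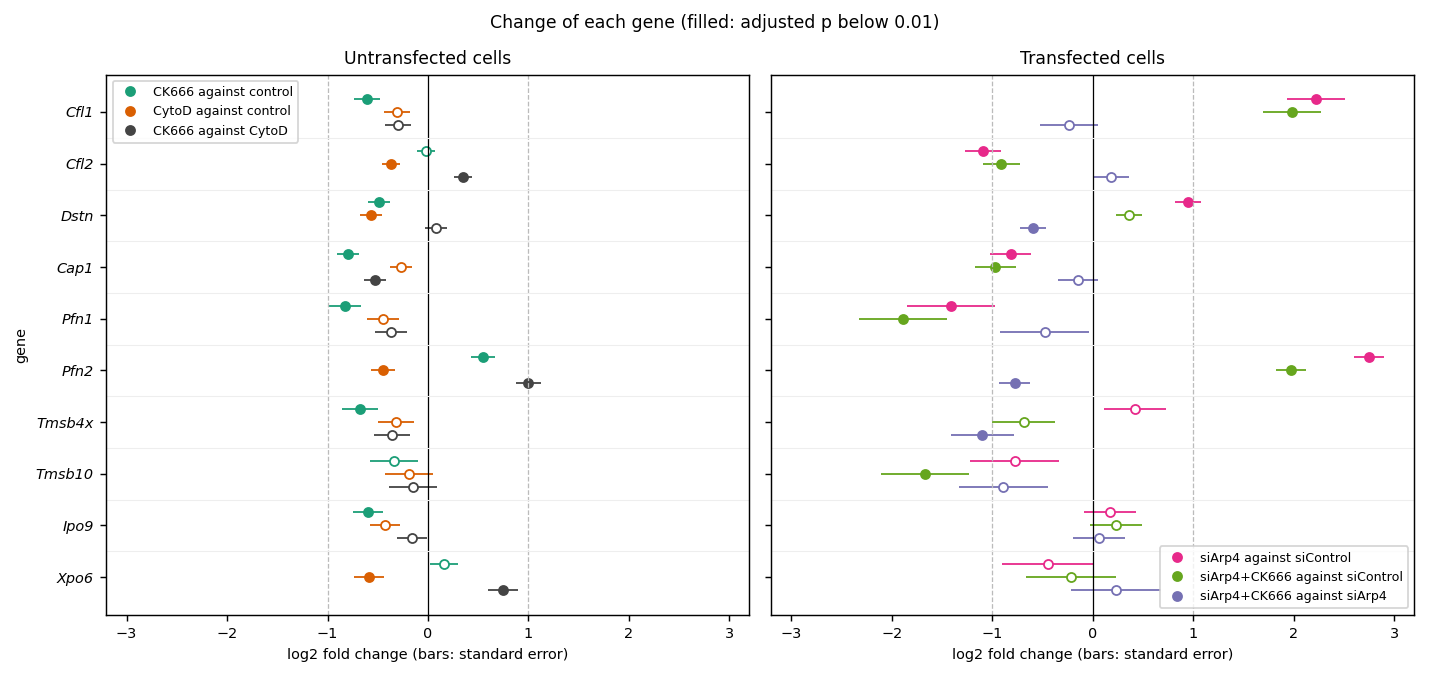
Log2 fold change of each gene with its standard error in the 3 comparisons of untransfected cells (left) and the 3 of transfected cells (right). Filled points have an adjusted p under 0.01 and dashed lines mark a 2-fold change. With CytoD all 10 points lie below 0, and after Arp4 siRNA the paralogue pairs Cfl1 and Cfl2, and Pfn1 and Pfn2, lie on opposite sides of 0.

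Pfn2, the profilin most abundant in neurons and the minor one here, had the widest span of group means of the 10 (2.78 log2 units over the 6 groups) and the largest change in siArp4. It stood at 660.7, 701.1 and 667.5 normalized counts in control, at 1124, 933.8 and 910.4 with CK666 and at 505.9, 491.7 and 491.5 with CytoD. The 3 groups did not overlap, CK666 lying above control and CytoD below. The log2 change was 0.55 ± 0.12 with CK666 (adjusted p 2.8e-05) and -0.45 ± 0.12 with CytoD (adjusted p 0.0012). In transfected cells it stood at 384.8, 437.6 and 486.6 in siControl, at 3124, 2858 and 2820 in siArp4, and at 1579, 1802 and 1740 in siArp4+CK666. Again no group overlapped another. The rise in siArp4 was 2.75 ± 0.15 on the log2 scale (adjusted p 2.37e-72) and in siArp4+CK666 1.97 ± 0.15 (adjusted p 3.6e-37), and siArp4+CK666 was lower than siArp4 by a log2 change of -0.78 ± 0.15 (adjusted p 2.33e-06). Both rises were called under every alternative tried.

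Pfn2 was thus raised by CK666 in untransfected cells and lowered by it in Arp4-depleted cells. The difference between those CK666 effects, fitted over all 18 libraries, was -1.33 ± 0.16 on the log2 scale (adjusted p 1.1e-14). It was the only one of the 10 called in this fit, where 3.67% of all genes were called higher and 4% lower and 4.35% were past the fold minimum. It was called in each of 18 fits leaving out a library (-1.39 to -1.23) and under the 6 other settings. The nearest of the other 9 was Cap1 at 0.64 ± 0.20 (adjusted p 0.0166). The groups differ in transfection and experiment as well as in Arp4, and these cannot be told apart here.

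Pfn1, the ubiquitous profilin, moved against its paralogue with CK666 and after Arp4 siRNA. Control libraries held 10750, 10310 and 10710 normalized counts, CK666 libraries 7674, 4677 and 5555, and CytoD libraries 7478, 7400 and 8308. Both treated groups lay under control. The CK666 change was called (log2 -0.83 ± 0.16, adjusted p 3.67e-06) and the CytoD change, -0.45 ± 0.16, was not (adjusted p 0.0176). In transfected cells siControl held 9470, 37670 and 17290, siArp4 8837, 8653 and 6780, and siArp4+CK666 4241, 5534 and 7609. The siArp4 values lay under all siControl values, but the first siControl library was close to them and the second was far above. The log2 change was -1.41 ± 0.44 in siArp4 (adjusted p 0.00603) and -1.89 ± 0.44 in siArp4+CK666 (adjusted p 1.06e-04). The siArp4 call was kept in 3 of 9 leave-one-out fits, with adjusted p from 1.69e-06 to 0.0502. It was lost without the second or the third siControl library, any siArp4 library or the second siArp4+CK666 library, and the change was smallest without the second siControl library (-0.74). It was also lost in edgeR (adjusted p 0.0241). The siArp4+CK666 call was kept in all 9 leave-one-out fits (-2.24 to -1.21).

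Set against one another within a library, where scaling cancels, the profilins showed the shift plainly. Pfn2 counts were 6.39 ± 0.356% of Pfn1 counts in control (SD, n = 3), 6.44 ± 0.465% with CytoD and 17.0 ± 2.71% with CK666. The CytoD ratios overlapped those of control, while every CK666 library lay higher. After control siRNA the ratio was 4.07, 1.16 and 2.81%. Arp4 siRNA gave 35.3, 33.0 and 41.6%, and with CK666 added it was 37.2, 32.6 and 22.9%. With 3 libraries against 3 an exact permutation test cannot go below p = 0.1, and no other test was run on the ratios.

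Cfl1, the main cofilin of non-muscle cells, had the highest mean normalized count of the 10 in every group but siControl. Its normalized counts were 30230, 27480 and 28770 in control, 22410, 16120 and 18150 with CK666, and 21660, 23170 and 24900 with CytoD. All treated libraries lay under control. The log2 change was -0.61 ± 0.13 with CK666 (adjusted p 2.12e-05) and -0.31 ± 0.13 with CytoD (adjusted p 0.0464, not called). After control siRNA it was at 8254, 17840 and 12730, in siArp4 at 61280, 63740 and 55600, and in siArp4+CK666 at 42090, 48960 and 61640. Both knockdown groups stood far above siControl and overlapped each other. The rise was 2.22 ± 0.29 on the log2 scale in siArp4 (adjusted p 4.97e-13) and 1.98 ± 0.29 in siArp4+CK666 (adjusted p 1.2e-10), and both were called under every alternative. Cfl1 overlaps Snx32 on the opposite strand and the libraries carried no strand information, but the mean count of Snx32 was 168.4.

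Cfl2, the cofilin best known from muscle, went the other way after Arp4 siRNA. Control libraries held 3343, 3177 and 3233 normalized counts, CK666 3501, 3104 and 2994, and CytoD 2449, 2440 and 2640. CK666 overlapped control (log2 change -0.02, adjusted p 0.879) and CytoD did not (-0.37 ± 0.09, adjusted p 3.8e-04). In transfected cells siControl held 3645, 2687 and 4040, siArp4 1569, 1732 and 1581, and siArp4+CK666 1836, 1863 and 1823. The knockdown groups lay well below siControl, at log2 changes of -1.09 ± 0.18 (adjusted p 4.19e-08) and -0.91 ± 0.18 (adjusted p 4.94e-06), both called under every alternative. Cfl2 counts were accordingly 44.2, 15.1 and 31.7% of Cfl1 counts after control siRNA, but 2.71 ± 0.142% after Arp4 siRNA and 3.71 ± 0.706% with CK666 added (SD, n = 3). In untransfected cells they were 11.3 ± 0.254% in control, 10.8 ± 0.428% with CytoD and 17.1 ± 1.90% with CK666.

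**Figure D3:**
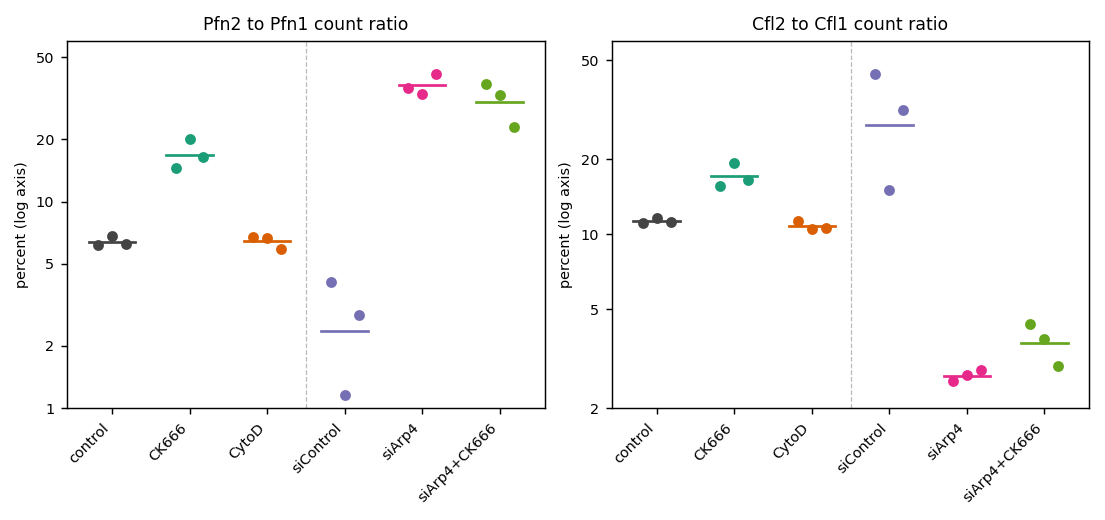
Counts of Pfn2 as a percent of Pfn1 (left) and of Cfl2 as a percent of Cfl1 (right) in each library, on log axes, with the geometric mean of each group as a bar. After Arp4 siRNA the profilin ratio lies at 22.9% or more and the cofilin ratio at 4.36% or less, outside all libraries of the other groups.

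Dstn, the last member of the cofilin family, followed Cfl1 after Arp4 siRNA with smaller steps and tight replicates. It was at 13520, 11720 and 12190 normalized counts in control, at 10150, 8264 and 8274 with CK666 and at 8215, 8306 and 8637 with CytoD, and both inhibitors lowered it, by log2 changes of -0.49 ± 0.11 (adjusted p 6.82e-05) and -0.57 ± 0.11 (adjusted p 2e-06). The siControl libraries held 8303, 7631 and 9347. Dstn was at 16300, 16530 and 16120 in siArp4, while siArp4+CK666 held 10210, 11120 and 11050. The 3 groups were ordered without overlap, siControl lowest and siArp4 highest. The siArp4 rise was 0.95 ± 0.13 (adjusted p 8.67e-13) and the fall from siArp4 to siArp4+CK666 was -0.60 ± 0.13 (adjusted p 4.36e-05). That fall was not called with the length trend described further on removed (-0.54, adjusted p 0.0382). The remaining difference of siArp4+CK666 from siControl, 0.36 ± 0.13, was not called (adjusted p 0.0142).

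Cap1, the cyclase-associated protein that recycles monomers from cofilin, was below its control in every treated group. It was at 7288, 7091 and 7209 in control, at 3566, 4607 and 4224 with CK666, and at 6172, 5916 and 5828 with CytoD. CK666 gave its lowest values, with no overlap among the 3 groups. The CK666 change, -0.80 ± 0.11 on the log2 scale, had the smallest adjusted p of the 10 genes (1.64e-12), and the CytoD change of -0.27 ± 0.11 was not called (adjusted p 0.0339). In siControl Cap1 was at 5043, 3463 and 3765, with 2250, 2290 and 2433 in siArp4, while siArp4+CK666 held 2338, 2177 and 1749. The falls against siControl were -0.82 ± 0.20 (adjusted p 3.28e-04) and -0.97 ± 0.20 (adjusted p 1.02e-05), and the knockdown groups overlapped. edgeR put the siArp4 change at an adjusted p of 0.0107. Cap1 overlaps Ppt1 on the opposite strand, whose mean count was 1194 beside 4346 for Cap1.

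The beta-thymosins had uneven values. Tmsb4x was at 9888, 8881 and 9203 in control, at 7863, 4634 and 4985 with CK666 and at 7434, 7275 and 7704 with CytoD. All treated libraries were below control, and the CK666 change of -0.68 ± 0.18 was called (adjusted p 7.7e-04) while the CytoD change of -0.32 ± 0.18 was not (adjusted p 0.155). Without the third CK666 library the CK666 call was lost (adjusted p 0.0136). Tmsb4x stood at 9612, 22380 and 16150 in siControl, at 22610, 21940 and 19690 in siArp4 and at 7943, 9898 and 12100 in siArp4+CK666. The siControl libraries reached from the low end to the siArp4 level, and neither difference of a knockdown group from them was called (0.42 ± 0.31, adjusted p 0.308, and -0.69 ± 0.31, adjusted p 0.0629). The fall from siArp4 to siArp4+CK666 was -1.10 ± 0.31 (adjusted p 0.0042), called in 3 of 9 leave-one-out fits, with adjusted p from 1.49e-06 to 0.0544. It was lost without the third siControl library, any siArp4 library or the first or second siArp4+CK666 library.

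Tmsb10 was at 7542, 8127 and 7424 in control, 9188, 3991 and 5059 with CK666 and 6944, 6347 and 6977 with CytoD. The first CK666 library lay above control and the other two below. The change of -0.34 ± 0.24 was not called (adjusted p 0.272), and without that library it was -0.76 (adjusted p 4.7e-14). In transfected cells it was at 16790, 69360 and 34090 in siControl, 24050, 25700 and 20340 in siArp4, while siArp4+CK666 held 9347, 12080 and 16300. The siControl values spanned those of siArp4, and siArp4+CK666 lay under all of them. Its fall against siControl was -1.67 ± 0.44 (adjusted p 6.75e-04), and -0.96, under the fold minimum, with the length trend described further on removed (adjusted p 2.62e-15). Leaving out the first siArp4+CK666 library raised the adjusted p to 0.0103.

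Of the nuclear transport receptors, Ipo9 was called lower with CK666 and Xpo6 with CytoD. Ipo9 was at 5363, 4810 and 5084 in control, 2604, 4076 and 3416 with CK666 and 3922, 3772 and 3604 with CytoD. Both treated groups were below control, by -0.60 ± 0.15 with CK666 (adjusted p 4.77e-04) and by -0.43 ± 0.15 with CytoD, which was not called (adjusted p 0.0146). CK666 against CytoD was at -0.16 ± 0.15 for Ipo9 (adjusted p 0.423), so a difference between the inhibitors was not shown. With the length trend removed, as described further on, the CytoD change was -0.34 and called (adjusted p 2.84e-04). In transfected cells it was at 3592, 1895 and 2456 in siControl, 2832, 2794 and 3318 in siArp4, while siArp4+CK666 held 3611, 3175 and 2541. These groups overlapped, with log2 changes of 0.17 (adjusted p 0.666) in siArp4 and 0.23 (adjusted p 0.522) in siArp4+CK666.

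Xpo6 was at 2226, 2237 and 2177 in control, 3055, 2271 and 2107 with CK666 and 1561, 1477 and 1382 with CytoD. Only CytoD stood clear of control, at -0.59 on the log2 scale as given above, and CK666 was at 0.16 ± 0.14 (adjusted p 0.401). The CytoD call was kept in 6 of 8 other settings and was lost with the length trend removed (-0.48, adjusted p 0.059). CK666 against CytoD gave 0.75 ± 0.15 (adjusted p 1.77e-06). In the second experiment it was at 796.4, 2578 and 1754 in siControl, 1480, 1274 and 1002 in siArp4, while siArp4+CK666 held 931.6, 1168 and 2300. The siControl libraries were spread over more than 3-fold, the third siArp4+CK666 library lay far above the other two, and no change was called (-0.45, adjusted p 0.474, in siArp4). The spread is plainest in the ratio of export to import receptor counts. Xpo6 was 41.5, 46.5 and 42.8% of Ipo9 in control and 39.8, 39.2 and 38.4% with CytoD, but 117, 55.7 and 61.7% with CK666, and 22.2, 136 and 71.4% in siControl. The siArp4 ratios, 52.3, 45.6 and 30.2%, lay around the control level, and siArp4+CK666 gave 25.8, 36.8 and 90.5%.

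Levels of different genes were compared per length, as RPKM over the union of each gene's exons. In control the order was Cfl1 at 490.8 ± 20.9 RPKM, Tmsb4x at 329.3 ± 16.5, Dstn at 316.2 ± 22.2, Tmsb10 at 292.2 ± 15.8, Pfn1 at 213.2 ± 3.78, Cap1 at 99.7 ± 0.834, Cfl2 at 48.2 ± 1.01, Ipo9 at 29.9 ± 1.47, Pfn2 at 9.25 ± 0.348 and Xpo6 at 6.34 ± 0.108 (SD, n = 3). Tmsb4x, Dstn and Tmsb10, which follow each other in that order, did not differ from their neighbours among the 3 beyond their spread. In siArp4 the order began with Cfl1 at 1019 ± 60.1, Tmsb10 at 881.2 ± 94.7 and Tmsb4x at 751.9 ± 47.3, and Pfn2 had moved from ninth place to the sixth at 39.9 ± 2.13. Lengths taken from the longest transcript put Tmsb10 first in CK666, siControl and siArp4 and in second place in the other groups.

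Replicates agreed to different degrees, and the share of counts on short transcripts differed between libraries as well. The coefficient of variation over the 3 libraries had a median among the 10 genes of 3.99% in control, 4.36% in CytoD, 7.04% in siArp4, 18.4% in siArp4+CK666, 18.7% in CK666 and 34.9% in siControl, where Pfn1 reached 67.8%. The share of protein-coding counts that fell on genes with no transcript over 1000 bases was 5.43 to 5.57% in control and 6.35 to 6.62% with CytoD, but 9.05, 5.85 and 6.55% with CK666, 7.83, 17.3 and 12.2% in siControl, 8.29 to 9.60% in siArp4 and 7.81 to 11.4% in siArp4+CK666. Tmsb4x and Tmsb10, with longest transcripts of 864 and 690 bases, are the only members in that class, and without them the share still ran from 5.34 to 16.9%. The second siControl library, with the highest share, had the highest Pfn1, Tmsb4x, Tmsb10, Xpo6 and Cfl1 and the lowest Ipo9, Cfl2, Dstn and Cap1 of its group. Ipo9, with a longest transcript of 6247 bases, was highest in the 3 control libraries, where the share was lowest, and lowest in that library. Among the siControl libraries Xpo6, with a longer transcript of 7335 bases, was highest in that library, and Dstn, with 1911 bases, was lowest there. What the share contributes to these values was examined only by the length-trend alternative described next.

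**Figure D4:**
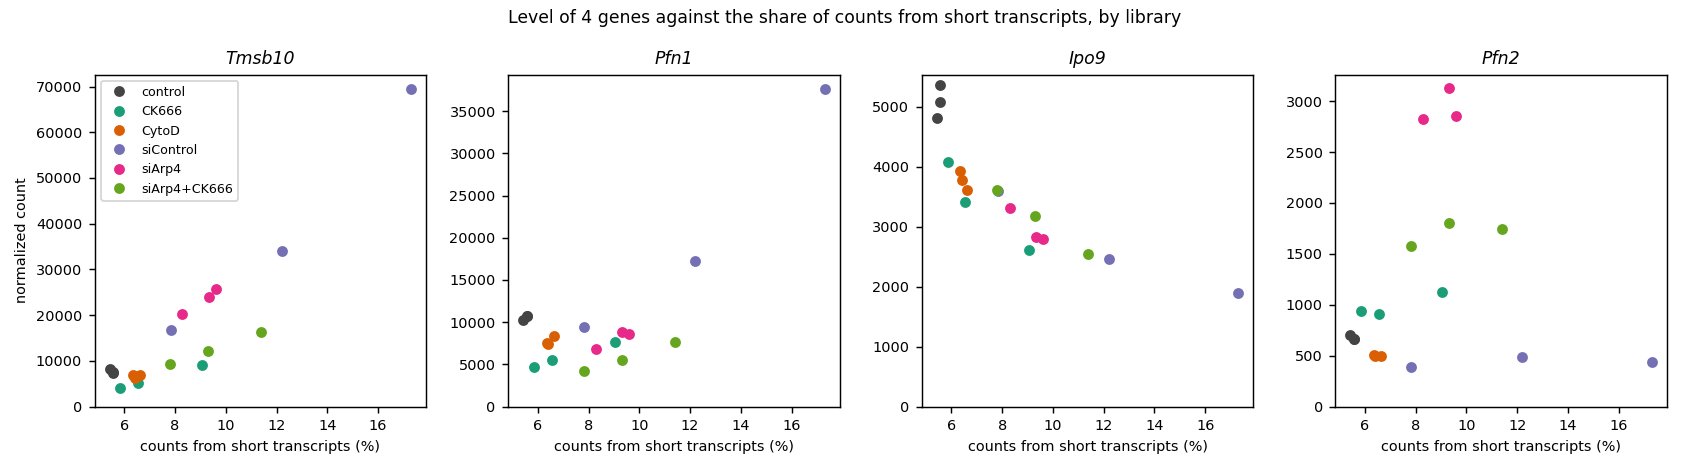
Normalized count of Tmsb10, Pfn1, Ipo9 and Pfn2 (vertical axes, from 0, scaled within each experiment) against the percent of protein-coding counts on genes with no transcript over 1000 bases, one point for each of the 18 libraries. Tmsb10 and Pfn1 are highest and Ipo9 lowest at 17.3%, while the Pfn2 groups stay apart at like shares.

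An alternative chosen after seeing the data removed each library's trend of counts on transcript length before testing. The Pfn2, Cfl1 and Cfl2 changes in siArp4 were then 2.82, 2.33 and -1.09, close to those above, and Pfn1 was at -1.17 (adjusted p 0.00119). Tmsb4x became called in siArp4 (0.86, adjusted p 3.21e-13) and Tmsb10 stood at -0.15 (adjusted p 0.322). In untransfected cells the CK666 changes of Ipo9 and Pfn1 were -0.51 and -0.96 and Tmsb10 was called lower at -0.62 (adjusted p 1.24e-07), while with CytoD 7 of the 10 were called in place of 4 and Xpo6 was no longer among them (-0.48, adjusted p 0.059), while Ipo9, Cfl1, Pfn1 and Tmsb4x were. In siArp4+CK666 against siControl 3 of the 10 were past the fold minimum in place of 4, Tmsb10 dropping out. From siArp4 to siArp4+CK666 the count of calls was still 3, but Tmsb10 (-0.81, adjusted p 1.31e-10) had taken the place of Dstn. In the difference of the CK666 effects Ipo9 was called beside Pfn2 (0.43, adjusted p 0.00386). Short-transcript genes were shifted in the main comparisons too, their median log2 change against siControl being -0.50 in siArp4 (other genes -0.02) and -0.56 once CK666 was added (other genes 0.02). With the inhibitors alone it was 0.23 with CK666 (other genes 0.03) and 0.13 with CytoD (other genes -0.06).

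The untreated groups of the experiments were set side by side, siControl against control, to show how far the reference itself lay apart. Of the 10, Pfn1, Tmsb4x and Tmsb10 were higher in siControl and Ipo9, Cfl1, Dstn, Pfn2 and Cap1 lower, where 21.2% of all genes were called higher and 19.9% lower. Cfl1, Pfn1 and Tmsb10 were past the fold minimum, as were 23.6% of all genes. Tmsb10 was highest, at a log2 change of 2.44 (adjusted p 3.08e-09), and Cfl1 was at -1.10. The median log2 change of short-transcript genes in this comparison was 1.33 against -0.08 for the others. With the length trend removed Tmsb10 was at 0.87, while Pfn1 was at 0.6 and no longer called (adjusted p 0.0424). Tmsb4x turned from 0.84 to -0.39 (adjusted p 1.31e-07), so its direction depended on this step. Pfn1 (0.38, adjusted p 0.271) and Tmsb4x (0.51, adjusted p 0.0819) were no longer called without the second siControl library, nor without any one control library, Pfn1 without the third CytoD library or Tmsb4x without the third siControl library. Transfection and experiment cannot be told apart here.

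Other genes of the pathway were counted from lists drawn up by function, with earlier results of these data known. Of 18 further monomer binders 14 were tested with CK666, of which 3 rose and 4 fell against control beside 15.0% and 14.4% of all genes, with Mrtfa, the coactivator that senses G-actin, at -1.43 ± 0.15 (adjusted p 2.27e-21). In siArp4, where 12.1% of all genes rose and 13.3% fell, 3 of 13 tested rose and none fell, among them Wipf1 (1.79 ± 0.27), a WASP partner, and Twf1 (1.12 ± 0.24), a twinfilin that also binds monomers. Of 9 cofilin regulators 4 were called with CK666, 3 with CytoD and 4 in siArp4. With CytoD 13.5% of all genes were called higher and 15.7% lower. Of genes with a mean of at least 1000 counts 39.4% were called with CK666, 39.2% with CytoD and 31.5% in siArp4, in either direction. The cofilin cofactor Wdr1 fell with CK666 (-1.05 ± 0.08, adjusted p 3.09e-41), with CytoD (-0.67 ± 0.08) and in siArp4 (-0.66 ± 0.13), and the CK666 effect on it differed between Arp4-depleted and untransfected cells (1.18 ± 0.12, adjusted p 3e-20), as it did on Mrtfa (1.23 ± 0.20). In siArp4 the slingshot phosphatases, which activate cofilin by dephosphorylation, split, Ssh1 rising by 1.68 ± 0.14 and Ssh3 at -1.50 ± 0.31. Of the other proteins with an ADF-homology domain, Cotl1 fell in siArp4 (-1.65 ± 0.29).

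The same lists were counted in the remaining comparisons. CK666 against CytoD, of 14 monomer binders tested 3 were higher and 4 lower beside 17.1% and 15.0% of all genes, and 43.5% of those with a mean of at least 1000 counts in either direction, with Mtss1 at -1.74 ± 0.21, Spire1, an actin nucleator, at 1.5 ± 0.20 and the twinfilin Twf2 at -1.11 ± 0.19. Of the 9 cofilin regulators 3 were higher and 2 lower, among them Pdxp, the cofilin phosphatase chronophin, at 1.54 ± 0.22 and the cofilin kinase Tesk2 at -1.26 ± 0.22. Pdxp also fell with CytoD against control (-1.03 ± 0.22). In siArp4+CK666 against siControl, Wipf1, Twf1 and Ssh1 were higher again (1.86 ± 0.27, 1.03 ± 0.24 and 1.73 ± 0.14), as was the kinase Tesk1 (1.18 ± 0.17), and Ssh3 and Cotl1 were lower (-1.43 ± 0.31 and -2.08 ± 0.29). In siControl against control 2 of 13 monomer binders were higher and 6 lower beside 21.2% and 19.9% of all genes, with Wipf1 at -1.78 ± 0.20, Mrtfb at -1.41 ± 0.33 and Mrtfa at -1.18 ± 0.14, and Limk1, the kinase that inactivates cofilin, was at -2.23 ± 0.28.

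The actins whose monomers these proteins bind were lower as well. Actb and Actg1 fell with CK666 (log2 changes -1.0 ± 0.09 and -0.48 ± 0.10) and with CytoD (-0.42 ± 0.09 and -0.33 ± 0.10), all called. In siArp4 only Actg1 was called (-1.02 ± 0.24, adjusted p 1.34e-04), with Actb at -0.78 ± 0.34 (adjusted p 0.0555), and in siArp4+CK666 both were (-1.03 ± 0.34 for Actb and -1.03 ± 0.24 for Actg1). Their siControl libraries were uneven as well, Actb having an SD of 41810 on a mean of 83860 normalized counts.

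Ipo9 and Xpo6 belong to the importin-beta family, whose cargo binding is set by the small GTPase Ran. With CytoD 12 of the 17 other receptors fell and none rose, where 15.7% of all genes, and 25.7% of those with a mean of at least 1000 counts, were called lower. They were led by Xpo4 (-1.32 ± 0.19), Kpnb1 (-1.26 ± 0.08), which is importin beta itself, and Ipo7 (-1.16 ± 0.11), and the median log2 change of the 17 was -0.81 against 0.01 for all genes. Xpo6 and Ipo9 had smaller falls than that median. Of 7 Ran cycle genes 5 fell with CytoD, with Rcc1, the nuclear exchange factor of Ran, at -1.58 ± 0.12, Ranbp1 at -1.21 ± 0.18 and Ran itself at -0.92 ± 0.15 (adjusted p 9.38e-09). Ran was not called with CK666 (-0.13 ± 0.15, adjusted p 0.552), in siArp4 (-0.35 ± 0.15, adjusted p 0.0653) or in siArp4+CK666 (-0.39 ± 0.15, adjusted p 0.0301). CK666 against CytoD, 10 of the 17 receptors and 5 of the 7 Ran cycle genes were higher and none lower, beside 17.1% of all genes and 24.8% of the abundant ones called higher, with Xpot at 2.29 ± 0.13, Ipo7 at 1.25 ± 0.11 and Rcc1 at 1.44 ± 0.12. With CK666 4 of the 17 fell, beside 14.4% of all genes, and Xpot, the tRNA exportin, rose by 1.23 ± 0.13. In siArp4 5 fell and 1 rose, beside 13.3% and 12.1% of all genes, with Xpo7 at -1.57 ± 0.39, Ipo8 at -1.54 ± 0.20 and Tnpo2 at -1.22 ± 0.16. CK666 raised Xpot in Arp4-depleted cells too (1.05 ± 0.14 against siArp4), the only receptor of the 17 called there, where 3.75% of all genes were called higher. In siControl against control 12 of the 17 were lower and none higher, beside 19.9% of all genes and 30.2% of the abundant ones called lower, led by Cse1l at -2.35 ± 0.21.

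**Figure D5:**
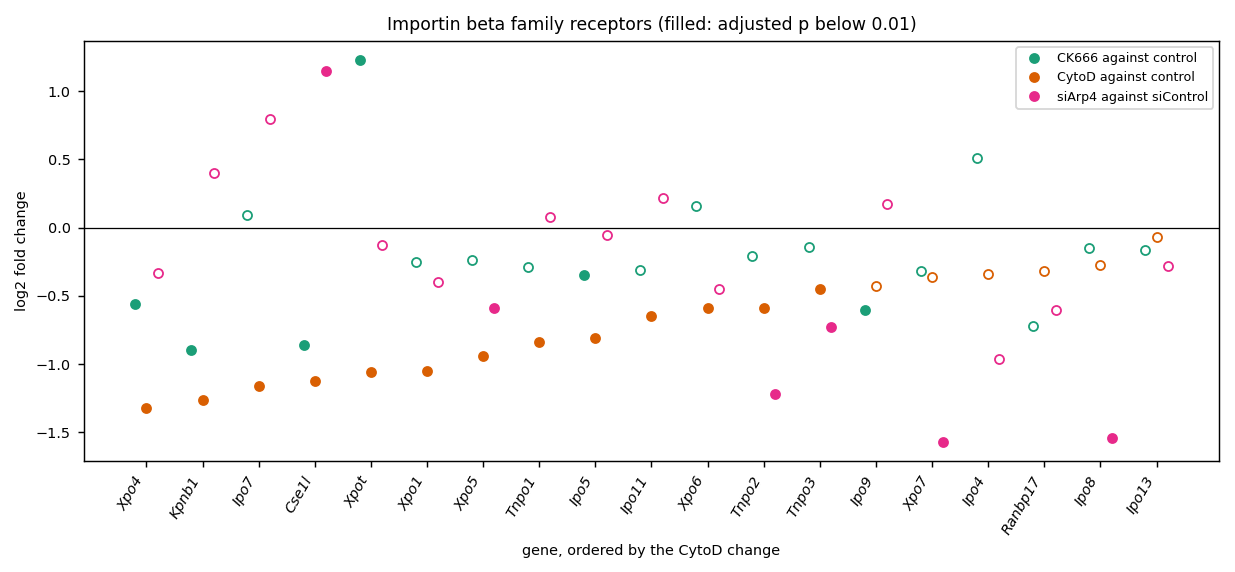
Log2 fold change of Ipo9, Xpo6 and the 17 other importin-beta family receptors (horizontal axis, ordered by the CytoD change) with CK666, CytoD and Arp4 siRNA, each against its control. Filled points have an adjusted p under 0.01. All CytoD points lie below 0, Xpo6 and Ipo9 among the 9 nearest to 0.

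Of the 10 genes 8 had group means spanning over 1 log2 unit, and for each the 2 genes with the nearest profile over the 6 group means were found among 9875 genes. The smallest root mean square differences were those of Cenpo (0.056 log2 units) and Larp4b (0.073) from Cfl2, and of Scarb1 and Ammecr1 from Cap1, both at 0.080. Cfl1 was nearest to Atp2b1 (0.176) and Itga5 (0.180), Tmsb10 to Myl6 (0.175), Tmsb4x to Fkbp10 (0.118), Pfn1 to Pcyox1l (0.160) and Dstn to Gtf2h2 (0.1). For Pfn2, with the widest span of 2.78, the nearest was Acsl4 at 0.264. The difference was not scaled to the span of a gene, which was 1.04 for Cfl2, so its size does not rank how well genes are matched.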

How the data were processed

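Bulk RNA of 18 mouse MSC libraries was sequenced as unstranded read pairs. The authors deposited 1 table of expected counts per gene, made with Salmon 1.2.1 on GENCODE vM25 (GRCm38), with 54347 genes and 18 libraries. How transcripts were summed to genes is not given in the sources used here. Expected counts were rounded and tested with DESeq2 1.42.0 (Wald test, Benjamini-Hochberg adjustment over all genes, R 4.3.3) in 1 fit of 9 libraries per experiment, and of all 18 for comparisons across experiments. edgeR 4.0.16 (quasi-likelihood) was an alternative. Both were tested on simulated data. Replicates come from separate culture preparations, and chi-square values found no pair within sampling noise (lowest 6.79 per degree of freedom). Library totals were 18075610 to 24733212.

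Groups came from the labels, and the split into 2 experiments followed transfection. A call is an adjusted p under 0.01, and the fold minimum a log2 change over 1. The 10 members, Actl6a, Actb, Actg1, Ran and Wdr1 were to be named throughout, and from each other list up to 3 genes per comparison past both limits with a mean count of at least 100, largest change first. Members and lists were chosen with earlier results of these data known. Gene coordinates are from GENCODE vM21, the same build, which matched 54094 of 54347 gene IDs. The search for pseudogene copies required 100 aligned bases, 90% identity and 50% of the copy. Alternatives were TMM scaling, a minimum of 10 counts in 3 libraries, other sets of libraries, a replicate block, copies added, a test against a 2-fold change and, chosen after seeing the data, a lowess trend on transcript length removed from each library.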

Additional observations from a re-analysis of the deposited data

Results flagged for a closer look

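One result stood out because the same inhibitor had different effects in the untransfected and the Arp4-depleted cells. The CK666 effect on Pfn2 in siArp4 cells minus that in untransfected cells was -1.33 ± 0.16 on the log2 scale (DESeq2 over 18 libraries, adjusted p 1.1e-14). Every CK666 library was above every control library, by a mean log2 change of 0.55, and every siArp4+CK666 library was below every siArp4 library, by -0.78. Cells given the control siRNA and CK666 were not analysed here, so Arp4 loss, transfection and experiment cannot be told apart. With the length trend removed the difference was -1.20 (adjusted p 1.83e-23).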

How the results depend on the processing

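The rises of Pfn2 and Cfl1 and the fall of Cfl2 in siArp4 kept their direction and their call under all 8 other settings and in all 9 fits leaving out 1 library. Leaving out 1 library gave 6 to 8 called members for CK666 against control (0 to 1 past the fold minimum), 2 to 9 for CytoD against control, 3 to 8 for CK666 against CytoD (0 to 1), 5 to 7 for siArp4 against siControl (3 to 5), 5 to 7 for siArp4+CK666 against siControl (4 to 6), 1 to 3 for siArp4+CK666 against siArp4 (0 to 1), 1 to 2 for the difference of the CK666 effects, and 6 to 8 for siControl against control (2 to 4).

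In edgeR 2 members were called for CytoD against control in place of 4, and 0 for siArp4+CK666 against siArp4 in place of 3, with 0 past the fold minimum in place of 1. For siArp4 against siControl edgeR called 4 in place of 6, without Pfn1 and Cap1. 1 member, Pfn2, was past the fold minimum for CK666 against CytoD in edgeR, with TMM scaling and with only the 6 libraries compared, in place of 0. With only those 6 libraries, 10 members were called for CytoD against control. With all 18 libraries in one fit, 3 were called for CK666 against control in place of 7, 2 for CytoD against control and 2 for CK666 against CytoD in place of 4 each. A test against a 2-fold change left 2 members past the minimum in siArp4, 1 in siArp4+CK666 and 0 for siArp4+CK666 against siArp4, in place of 4, 4 and 1. With the length trend removed, 7 were called for CytoD against control, 7 for CK666 against CytoD and 2 for the difference of the CK666 effects in place of 4, 4 and 1, 1 was past the fold minimum for siControl against control in place of 3, and Tmsb4x in that comparison turned from 0.84 to -0.39. Tmsb10 in siArp4+CK666 against siControl moved from -1.67 to -0.96, and in siArp4+CK666 against siArp4 Dstn lost its call (adjusted p 0.0382) and Tmsb10 gained one. Beyond what each setting changes by construction, the cause was not tested.

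Same-numbered libraries were not paired by design. Of 18 same-number pairs 5 correlated over 0.1 (range -0.505 to 0.730), and 6 correlated best with their own number. The replicate block changed 1 call, Pfn1 in siControl against control (log2 1.02, adjusted p 0.0164), which took the called members there from 8 to 7 and those past the fold minimum from 3 to 2. TMM moved the median of all genes by at most 0.025. All members had a mean count over 100, and counting error was small beside the spread between libraries.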
